A study of Mus musculus with 30 samples.

Results

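Open chromatin was examined at the loci of 9 chemokine receptors of mouse T cells: Ccr2, Ccr4, Ccr6, Ccr8, Ccr9, Cxcr3, Cxcr4, Cxcr5 and Cxcr6. A peak was assigned to a receptor when that gene was the nearest protein-coding gene body and lay within 100 kb. This gave 61 of the 69316 peaks in the table of 26 libraries, of which 65186 lay within 100 kb of any protein-coding gene. Cxcr4 had 15 peaks, Ccr9 and Cxcr5 had 9 each, Ccr2 had 7, Ccr4 and Ccr6 had 6 each, Ccr8 had 5, Cxcr3 had 3 and Cxcr6 had 1. The Cxcr6 peak also lies inside Fyco1, so it belongs to both genes. Peaks are numbered along the chromosome within each gene, and every peak is 401 bp wide.

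Chemokine receptors are G protein-coupled receptors that steer T cells along gradients of secreted chemokines, and the set a cell displays decides which tissue it enters. CCR6 reads CCL20 at epithelia, CCR4 reads CCL17 and CCL22, CCR8 reads CCL1, and these 3 receptors are used by regulatory T cells (Treg) in skin and other barrier tissues. CXCR3 reads the interferon-induced CXCL9, CXCL10 and CXCL11, CXCR6 reads CXCL16 and CCR2 reads CCL2, all 3 in inflamed tissue. CCR9 reads CCL25 of the small intestine and thymus, CXCR4 reads CXCL12 of bone marrow and lymphoid stroma, and CXCR5 reads CXCL13 of the B cell follicle. Foxp3 is the transcription factor that defines Treg, and BATF is an AP-1 factor that binds DNA together with IRF4 and is needed by effector Treg.

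ATAC-seq and its variant omniATAC-seq, which measure how readily a transposase inserts into chromatin, were applied to T cells of lymph nodes and spleen, and the 26 libraries form 13 groups of 2. By the sample titles, the Foxp3R397W, control and double-knockout groups described below had omniATAC-seq and all other groups ATAC-seq. Ranges and highest values over the 13 groups therefore mix the protocols. BATFKO Treg came from Foxp3-IRES-hCD2.Batf-/- mice, in which human CD2 marks cells that transcribe Foxp3. They were set against WT Treg (CD4+hCD2+) of Foxp3-IRES-hCD2 mice, and WT Treg were set against WT Tconv (CD4+hCD2-), the conventional CD4 T cells of those mice. Foxp3R397W Treg, with a substitution in the DNA-binding domain of Foxp3, came from Foxp3R397W-IRES-hCD2/Foxp3-IRES-GFP mice, and their WT controls from Foxp3WT-IRES-hCD2/Foxp3-IRES-GFP mice. Both were sorted as CD4+hCD2+GFP- cells, so each mouse also held GFP+ Treg with intact Foxp3. Effector Treg (eTreg) were CD4+hCD2+CCR7loCD62Llo and central Treg (cTreg) CD4+hCD2+CCR7hiCD62LhiCD44lo, while Teff and Tnaive were the hCD2- cells of the same gates. Lastly, double-knockout (DKO) Treg, Foxp3KO-IRES-hCD2.Batf-/-, carried a retrovirus with Foxp3 and BATF together, BATF alone, Foxp3 alone or no insert (mock), and were sorted as CD4+hCD2+ cells positive for CD45.2, GFP and Thy1.1 and negative for CD45.1. The strain of the DKO cells is not given in the sources used here, and all 4 retrovirus groups lack both genes of their own. Their column names carry the word vivo, which no other column name does. The libraries held 3716499 to 25462278 reads in peaks.

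The names of some libraries are in conflict between the deposited tables, and this touches the eTreg, cTreg, Teff, Tnaive, Foxp3R397W Treg and control groups. A second table of 22 libraries shares 18 with the table used here, as shown by equal reads in 4478 peaks of identical position. Of these, 6 have 1 name throughout and 12 are named differently there. The libraries called eTreg here are the Foxp3R397W controls there, cTreg here are Foxp3R397W Treg there, Tnaive here are Foxp3KO controls there, and Teff here are Foxp3KO Treg there. The libraries called Foxp3R397W Treg and control here are eTreg and cTreg there. For the 12 libraries named differently, the titles give a different protocol under each name, so which protocol was used is not settled. All results below use the names of the 26-library table, and the column name of the control pair does not say which mutant it belongs to. Under the names of the 22-library table the counts of called receptor peaks were 1 for eTreg against cTreg, 3 for Teff against Tnaive, 0 for cTreg against Tnaive, 0 for eTreg against Teff and 26 for Foxp3R397W against control Treg, where the names used here gave 28, 32, 13, 17 and 1. That table has peaks of its own, and the share of all its peaks that were called is not given here. The counts thus show only that the calls change with the table and its names.

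Several loci outside the receptor set bear on the names. The 96 peaks at 5 Treg marker genes summed to 10068 to 11027 in WT Treg and 5707 to 6651 in WT Tconv. Their sums were 12573 to 13117 in eTreg, 12624 to 12983 in cTreg, 8253 to 8518 in Teff and 6872 to 6954 in Tnaive. They were 10097 to 10767 in Foxp3R397W Treg and 11108 to 12768 in their controls, so the libraries of these 5 Treg groups were all above those of Teff, Tnaive and WT Tconv. In BATFKO Treg, whose name is not in conflict, the sums were 8393 to 9555, and the lower one lay within the Teff range. The sums alone therefore do not separate every Treg library from Teff. A peak in the Foxp3 gene body at chrX:7583922-7584322 scored 381 and 363 in eTreg libraries, 435 and 370 in those of cTreg, 7.84 and 7.83 in Teff, and 1.28 and 9.07 in Tnaive. It scored 365 and 392 in WT Treg and 4.90 and 13.6 in WT Tconv, so the libraries named Teff and Tnaive were as low as WT Tconv. A peak near Ccr7, the receptor for lymph node homing, scored 29.9 and 19.9 in eTreg, against 141 and 134 in cTreg, and was 46.2 and 35.2 in Teff, against 219.7 and 223 in Tnaive. These orders follow the hCD2 and CCR7 gates of the 26-library names, and CCR7 was itself used in the sort. A peak of the Batf gene at chr12:85686411-85686811 scored 0 and 0 in BATFKO Treg, against 265 and 312 in WT Treg, and between 0 and 12.3 in the 8 DKO libraries.

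The 7 receptor promoters that overlap a peak are shown because the study concerns Foxp3, a forkhead factor, and BATF, an AP-1 factor. The windows are the 250 bases before each RefSeq start, from the RefSeq table of build GRCm38.p6, written 5′ to 3′ on the strand of the gene. Capitals mark the only AP-1 motif among them, joined to an IRF half-site.
Ccr4, chr9:114496545-114496794, minus strand: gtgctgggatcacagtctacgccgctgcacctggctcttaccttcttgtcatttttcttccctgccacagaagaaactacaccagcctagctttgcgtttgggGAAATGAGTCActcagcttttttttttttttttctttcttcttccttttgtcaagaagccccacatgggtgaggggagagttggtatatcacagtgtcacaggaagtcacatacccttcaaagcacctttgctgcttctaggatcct
Ccr6, chr17:8242276-8242525, plus strand: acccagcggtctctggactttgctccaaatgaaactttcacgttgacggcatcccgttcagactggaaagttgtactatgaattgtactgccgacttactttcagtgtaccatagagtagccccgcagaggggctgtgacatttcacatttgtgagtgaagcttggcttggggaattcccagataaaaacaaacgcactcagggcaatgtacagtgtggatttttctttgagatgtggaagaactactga
Ccr8, chr9:120091883-120092132, plus strand: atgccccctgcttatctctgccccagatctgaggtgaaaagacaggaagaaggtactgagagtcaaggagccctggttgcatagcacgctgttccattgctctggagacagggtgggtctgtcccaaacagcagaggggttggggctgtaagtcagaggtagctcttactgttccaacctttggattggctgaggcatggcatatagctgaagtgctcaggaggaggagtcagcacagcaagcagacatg
Ccr9, chr9:123766961-123767210, plus strand: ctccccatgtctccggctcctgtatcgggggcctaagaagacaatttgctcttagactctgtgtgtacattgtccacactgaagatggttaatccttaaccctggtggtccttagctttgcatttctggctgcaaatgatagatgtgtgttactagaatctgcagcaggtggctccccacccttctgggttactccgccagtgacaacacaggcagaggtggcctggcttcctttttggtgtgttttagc
Cxcr3, chrX:101734148-101734397, minus strand: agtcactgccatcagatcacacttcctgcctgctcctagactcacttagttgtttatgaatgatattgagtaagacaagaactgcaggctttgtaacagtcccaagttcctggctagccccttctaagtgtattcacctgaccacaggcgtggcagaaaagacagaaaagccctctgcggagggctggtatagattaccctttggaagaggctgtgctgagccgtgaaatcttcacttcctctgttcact
Cxcr4, chr1:128592300-128592549, minus strand: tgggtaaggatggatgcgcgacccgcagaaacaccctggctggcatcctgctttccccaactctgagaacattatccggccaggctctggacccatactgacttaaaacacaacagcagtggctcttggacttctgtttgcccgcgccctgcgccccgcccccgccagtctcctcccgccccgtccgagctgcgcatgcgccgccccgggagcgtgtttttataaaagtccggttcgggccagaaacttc
Cxcr6, chr9:123806227-123806476, plus strand: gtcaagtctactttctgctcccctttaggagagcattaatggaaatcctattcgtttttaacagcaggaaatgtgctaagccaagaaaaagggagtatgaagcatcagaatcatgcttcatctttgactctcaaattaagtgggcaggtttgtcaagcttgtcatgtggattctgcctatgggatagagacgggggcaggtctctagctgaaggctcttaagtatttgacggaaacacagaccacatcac

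Of the 9 receptor windows in that table, which cover 8 genes with a pair of starts for Ccr6, 1 held the AP-1 motif TGANTCA on either strand, against 6.75% of all 32851 windows. The same window, that of Ccr4, held the AP-1 motif directly preceded by GAAA, a composite with an IRF half-site found in 0.100% of all windows, at 147 to 137 bases before the start and overlapping the AP-1 match. The other composite, TTTC at 4 bases before TGANTCA, and the forkhead motif TGTTTAC were in none of the 9, against 0.0974% and 3.17% of all windows. A match describes letters in a window and does not show binding. Most of the peaks lie elsewhere. Of the 52 peaks at receptors with a start in that table, 7 are centred within 500 bp of one, and the 9 Cxcr5 peaks could not be placed in this way. Of all 61, 19 lie in a gene body and 42 outside one. Sequences of the distal peaks are not used here.

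The loci differed widely in how much they moved. Over the 13 group means, the range of the log2 score (log2 of the normalized score plus 1) had a median of 2.52 among the 61 peaks, against 2.22 among all peaks, and their median mean score was 59.3, against 48.6. A peak was called when limma's moderated test gave a Benjamini-Hochberg adjusted p under 0.05 over all peaks. In the 10 comparisons of 2 groups, 48 of the 61 peaks were called at least once and 13 were never called. The share of all peaks called at least once was not computed, and a single comparison, Teff against Tnaive, called 40.3% of all peaks. These counts therefore do not set the receptor peaks apart. The most widely called were Ccr6 peak 3 and Ccr8 peak 3, both at a start, with 6 comparisons each. The promoter peaks of Ccr4 (peak 3, scores 136 to 424) and Cxcr4 (peak 5, scores 239.5 to 846) were open in every library and never called, as was the tallest Cxcr4 peak (peak 12, 594 to 1808).

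**Figure D1:**
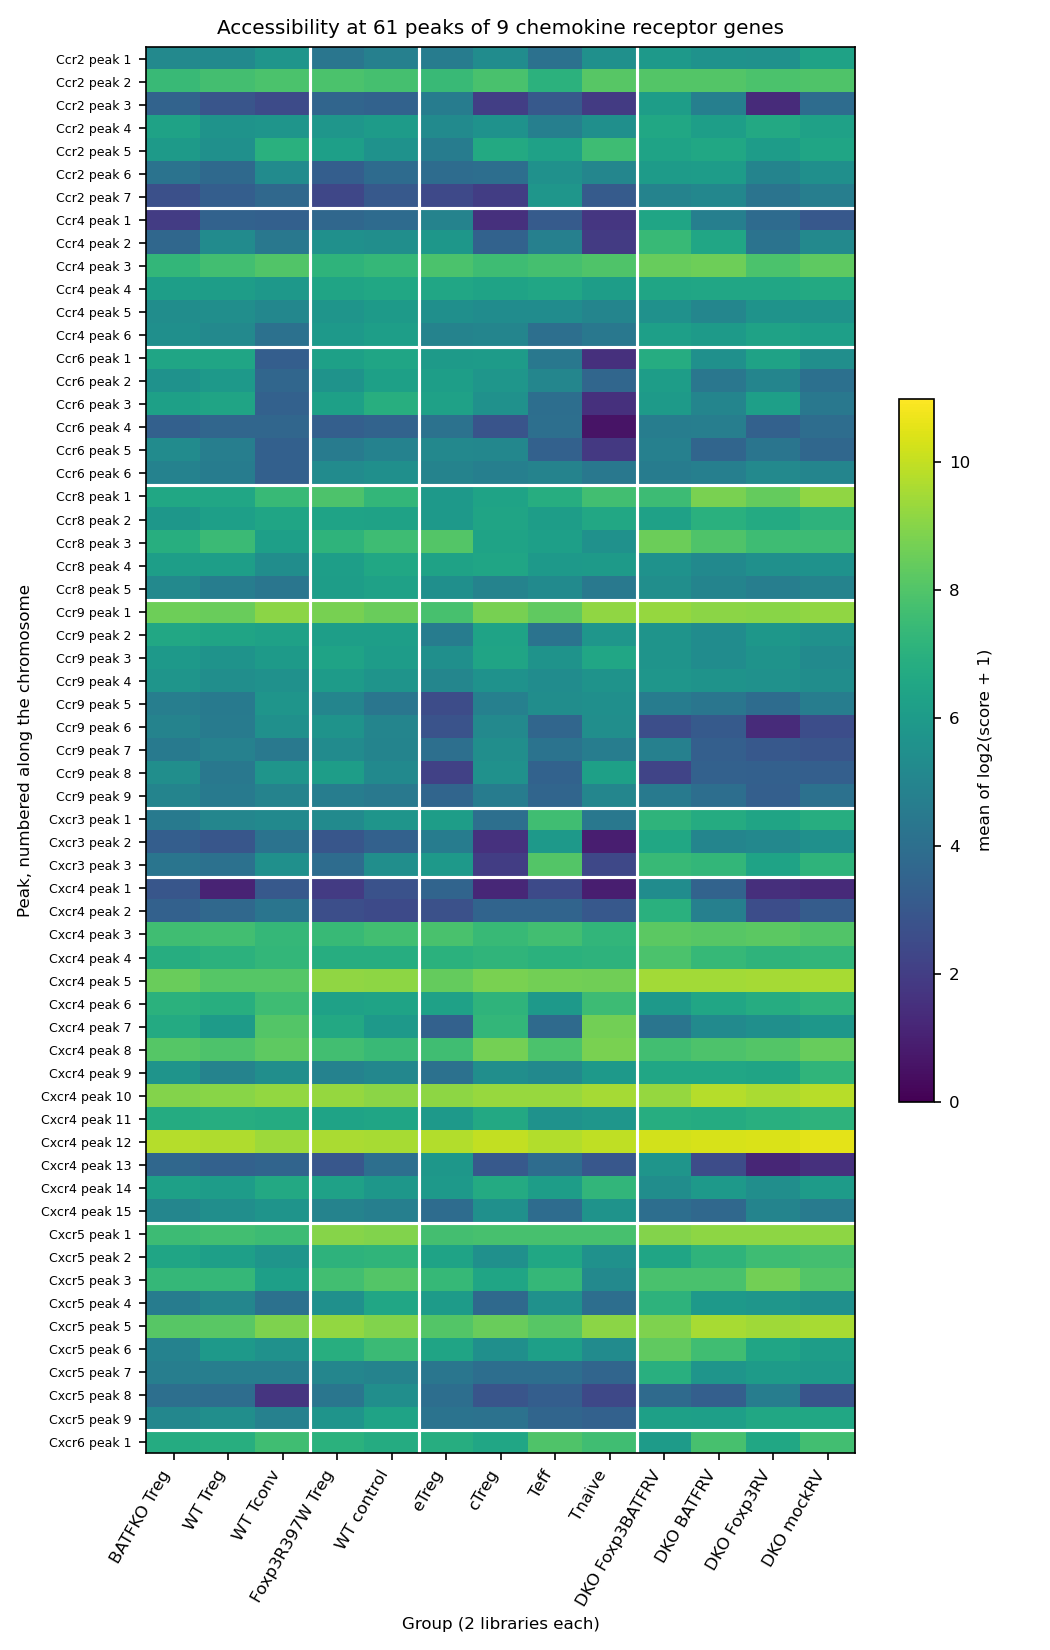
Mean log2(score + 1) of the 61 receptor peaks (rows, by gene and position) in the 13 groups (columns), with yellow for the most open and dark blue for the least open chromatin. The Ccr6 rows stand out in Treg groups, Cxcr3 peaks 1 and 3 in Teff, and several Cxcr4 rows are high in every group.

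**Figure D2:**
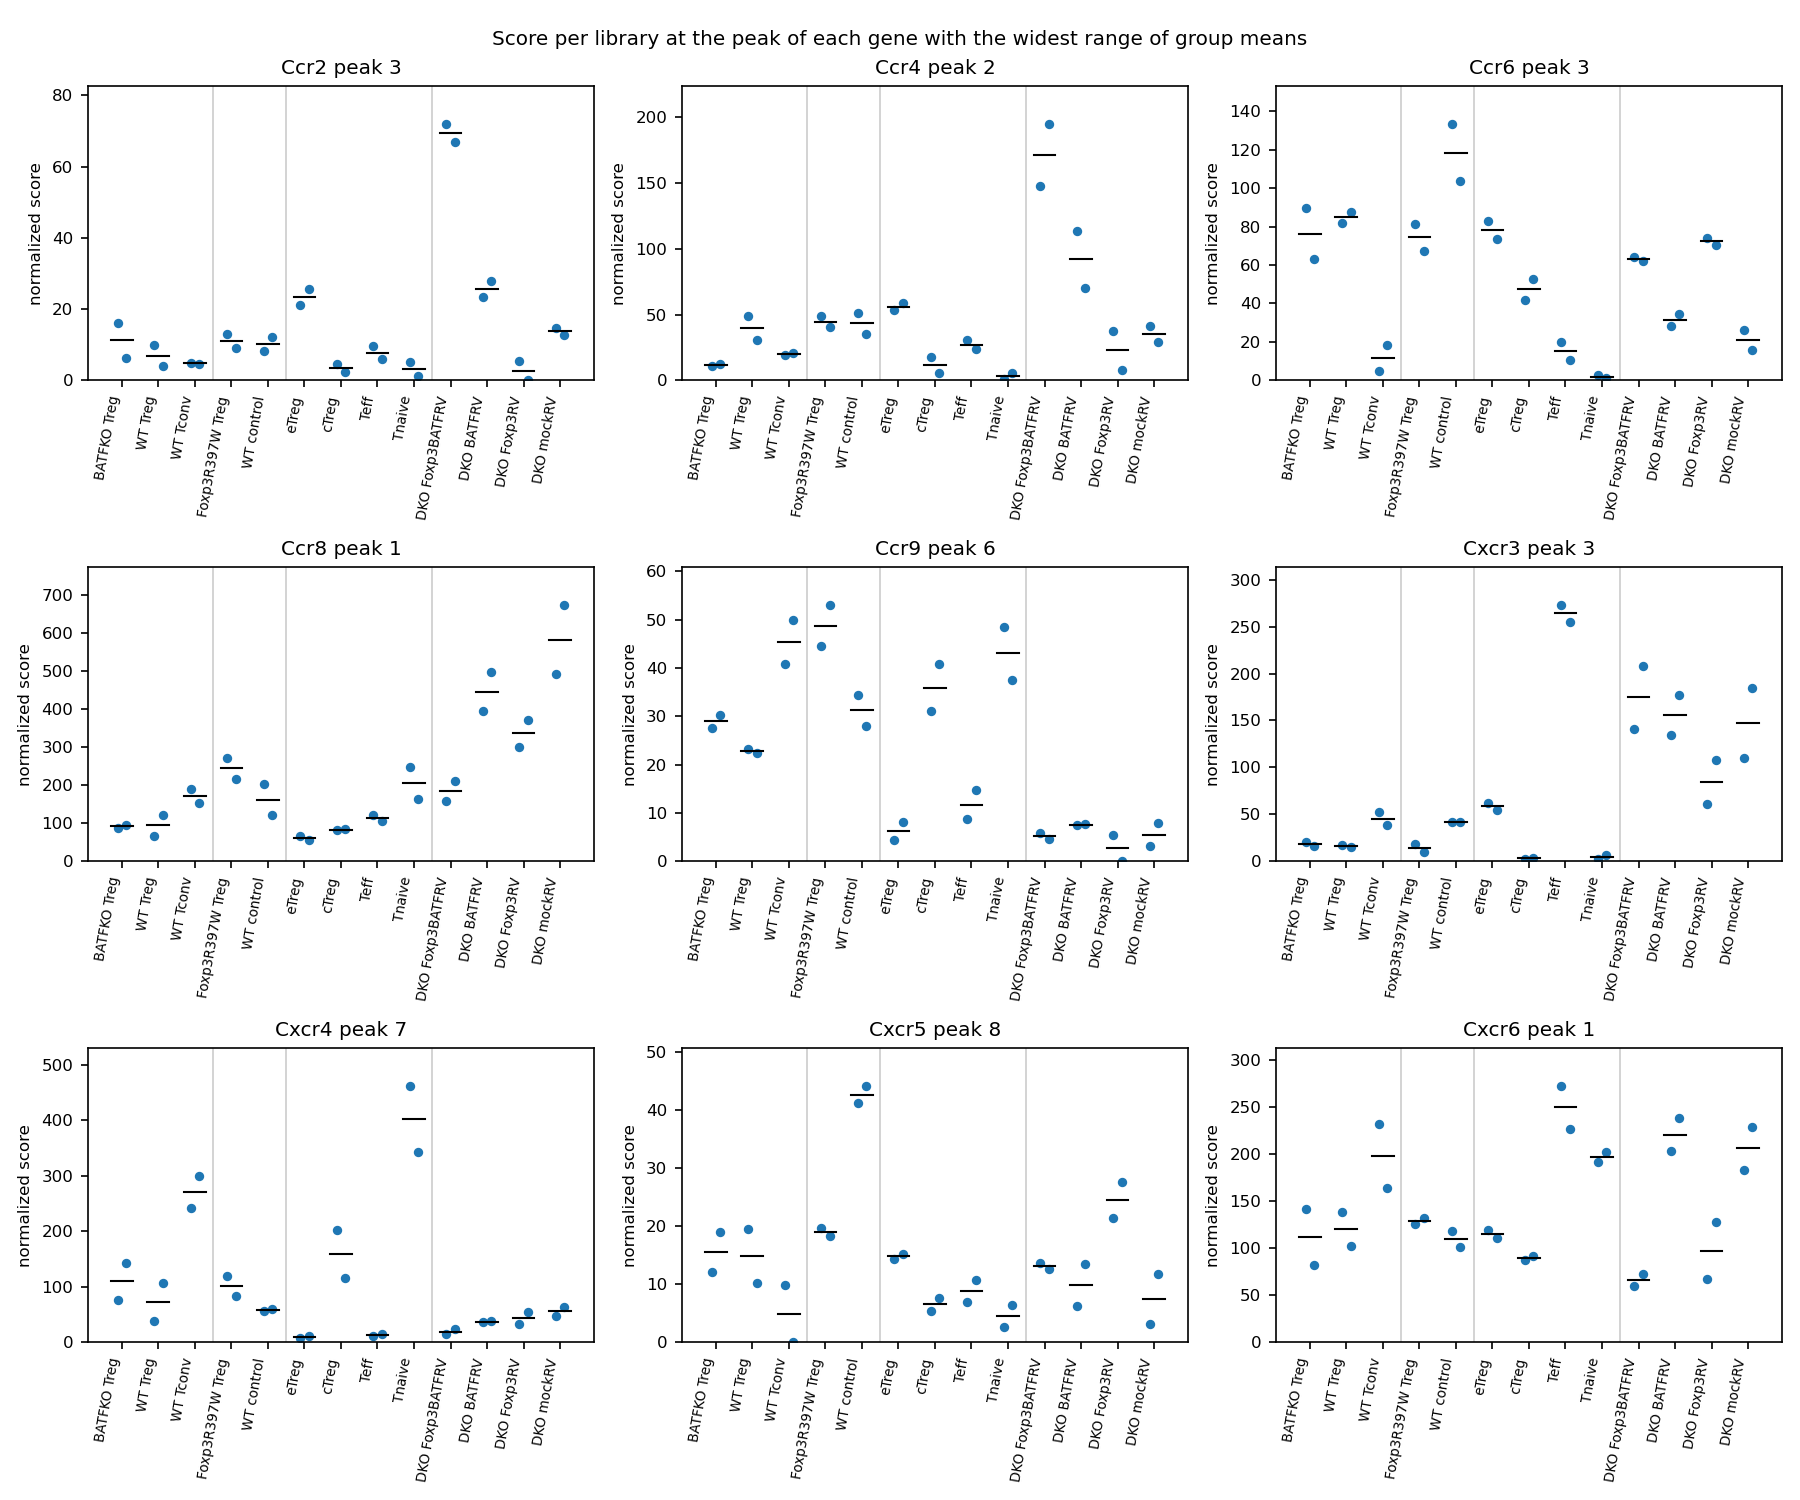
Normalized score of each library (points) and the group mean (bar) for the peak of each receptor with the widest range of group means, in the 13 groups. Cxcr3 peak 3 is highest in Teff, Cxcr4 peak 7 is highest in Tnaive, and Ccr6 peak 3 is lowest in Tnaive.

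Ccr6 was the receptor locus most open in Treg relative to conventional cells. WT Treg and WT Tconv differed at 19 of the 61 peaks, 9 higher and 10 lower in Treg. That is 31.1% of the receptor peaks where 20% of all peaks were called, 10.1% of all peaks being higher and 9.92% lower. Of the 9 higher peaks, 5 were among the 6 peaks of Ccr6, of which peaks 1, 2 and 3 kept their calls without each library, while peak 5 lost it without any of them (1.29 to 1.40) and peak 6 without Tconv library 2 (0.35, adjusted p = 0.68), WT Treg library 1 (1.48, adjusted p = 0.065) or WT Treg library 2 (adjusted p = 0.23). In bulk samples a smaller share of cells with an open region and a smaller opening in each cell cannot be told apart, here and below.

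Ccr6 peak 1 (chr17:8233586-8233986, 2.26 kb upstream of a start) scored 96.5 and 79.6 in WT Treg, against 6.53 and 11.4 in WT Tconv. Its difference was 3.20 log2 units (SE 0.31, adjusted p = 1.1e-08). Ccr6 peak 3 (chr17:8242264-8242664), which covers the other start shown above, scored 81.9 and 87.8 in WT Treg, against 4.90 and 18.2 in WT Tconv, a difference of 3.01 (SE 0.39, adjusted p = 1.5e-06). Both peaks were several-fold higher in both Treg libraries, with no overlap. Ccr8 peak 3 (chr9:120091808-120092208), at the Ccr8 start, scored 167 and 189 in WT Treg, against 65.3 and 81.8 in WT Tconv, and rose by 1.27 (SE 0.24, adjusted p = 0.00025). These 3 calls held without each of the 4 libraries in turn.

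The peaks that were lower in WT Treg than in WT Tconv were spread over 6 receptors. Cxcr4 peak 7 (chr1:128602443-128602843, 10.34 kb upstream) scored 39.1 and 107 in WT Treg, against 242 and 300 in WT Tconv, a difference of -2.04 (SE 0.38, adjusted p = 0.00023). Ccr2 peak 5 (chr9:124100318-124100718, 1.66 kb upstream) scored 35.4 and 56.1 in WT Treg, against 140 and 109 in WT Tconv, a difference of -1.45 (SE 0.24, adjusted p = 5.2e-05). Both calls held without each library.
The lower calls at other receptors were less firm. Cxcr3 peak 3 (chrX:101737188-101737588, 3.24 kb upstream) scored 17.1 and 15.3 in WT Treg, against 52.2 and 38.6 in WT Tconv, with a difference of -1.42 (adjusted p = 0.0047) that was -1.21 (adjusted p = 0.067) without Tconv library 1. Cxcr6 peak 1, at the Cxcr6 start, scored 138 and 102 in WT Treg, against 232 and 164 in WT Tconv, with a difference of -0.71 (adjusted p = 0.049). Its call was lost without Tconv library 1 (-0.46), WT Treg library 1 (-0.93) or WT Treg library 2 (-0.49), and the largest adjusted p was 0.38. Ccr8 peak 1 (chr9:120082680-120083080, 9.25 kb upstream) was lower in Treg, the opposite of the peak at the Ccr8 start. It scored 67.2 and 121 in WT Treg, against 189 and 152 in WT Tconv, a difference of -0.90 (adjusted p = 0.012) that lost its call without Tconv library 1 (-0.75, adjusted p = 0.13) or WT Treg library 1 (-0.48, adjusted p = 0.33). With 1 library left out, the 19 calls became 11 without Tconv library 1, 11 without Tconv library 2, 10 without WT Treg library 1 and 13 without WT Treg library 2, and 6 of the 19 held every time.

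The same comparison was made within the gate of CCR7hiCD62LhiCD44lo cells. cTreg and Tnaive differed at 13 of 61 peaks (21.3%, against 16.6% of all peaks). Of these, 8 were higher and 5 lower in cTreg, where 8.8% and 7.82% of all peaks were, and 5 of the 8 were again Ccr6 peaks. Ccr6 peak 4 lost its call without Tnaive library 2 (1.68, adjusted p = 0.12) or cTreg library 1 (1.84, adjusted p = 0.11). Ccr6 peak 1 scored 60.4 and 70.5 in cTreg, against 2.55 and 1.30 in Tnaive, a difference of 4.54 (SE 0.31, adjusted p = 4.7e-12). Ccr6 peak 3 scored 41.8 and 52.9 in cTreg, against 2.55 and 1.30 in Tnaive, a difference of 4.07 (SE 0.39, adjusted p = 5.6e-09). The Ccr6 peaks were near the level of a few reads in Tnaive and open in cTreg, and both calls held without each library. Cxcr6 peak 1 scored 87.1 and 91.5 in cTreg, against 192 and 202 in Tnaive, and fell by 1.13 (SE 0.26, adjusted p = 0.0019), also without each library.
This comparison shares no library with WT Treg against WT Tconv. Of the peaks higher in Treg, 6 were called in both comparisons, which is 66.7% of the 9 and 75% of the 8, against 54.4% and 62.6% over all peaks. Of those lower in Treg, 5 were called in both, which is 50% of the 10 and 100% of the 5, against 55.2% and 70% over all peaks.

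eTreg and Teff, the CCR7loCD62Llo cells, differed at 17 of 61 peaks (27.9%, against 17.5% of all peaks), 8 higher and 9 lower in eTreg, where 8.4% and 9.07% of all peaks were. Without eTreg library 2 the count was 11. Ccr8 peak 3 scored 275 and 262 in eTreg, against 67.9 and 77.3 in Teff, a difference of 1.87 (SE 0.24, adjusted p = 1.7e-06). Ccr6 peak 3 scored 83.1 and 73.7 in eTreg, against 20 and 10.8 in Teff, a difference of 2.33 (SE 0.39, adjusted p = 7.1e-05). The Treg-high peaks at the starts of Ccr6 and Ccr8 were thus higher in Treg here too, with no overlap between libraries.
Peaks of the 3 receptors of inflamed tissue were called lower, 2 of 3 at Cxcr3, 3 of 7 at Ccr2 and the 1 at Cxcr6. The other 4 Ccr2 peaks were not called, and the median over its 7 peaks was 0.41, with a highest value of 1.51. Cxcr3 peak 3 scored 62.0 and 55.0 in eTreg, against 273 and 255 in Teff, a difference of -2.16 (SE 0.36, adjusted p = 6.4e-05). Ccr2 peak 7 (12.75 kb downstream of the start) scored 3.32 and 5.85 in eTreg, against 51.4 and 56.7 in Teff, a difference of -3.34 (SE 0.52, adjusted p = 2.6e-05). Cxcr6 peak 1 scored 120 and 111 in eTreg, against 272 and 227 in Teff, a difference of -1.10 (SE 0.26, adjusted p = 0.0025). All 3 peaks were lower in both eTreg libraries, and so was a peak of Ccr9. Ccr9 peak 5 (chr9:123763775-123764175, 3.24 kb upstream) scored 6.65 and 3.51 in eTreg, against 41.8 and 41.1 in Teff, a difference of -2.85 (SE 0.41, adjusted p = 7.9e-06). These 6 calls held without each library.

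The step to the CCR7loCD62Llo state opened peaks of Cxcr3 and Ccr4 and closed peaks of Ccr9 in both lineages. At Cxcr4, 2 peaks were higher and 6 lower in eTreg than in cTreg, while the 5 called between Teff and Tnaive were all lower in Teff. Between eTreg and cTreg, Cxcr4 peaks 7, 8 and 13 kept their calls without each library, and peaks 1, 6, 9, 14 and 15 did not. Between Teff and Tnaive, only Cxcr4 peak 14 did not. eTreg and cTreg differed at 28 of 61 peaks (45.9%, against 37.1% of all peaks), 13 higher and 15 lower in eTreg, where 19.7% and 17.4% of all peaks were. Teff and Tnaive differed at 32 (52.5%, against 40.3% of all peaks), 16 higher and 16 lower in Teff, where 20.7% and 19.6% of all peaks were. Libraries did not overlap at 48 and at 49 of the 61 peaks in these comparisons, against 71.4% and 72.5% of all peaks.

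Cxcr3 had the largest rise in both lineages, and all 3 of its peaks were called in both. Cxcr3 peak 3 scored 62.0 and 55.0 in eTreg, against 2.67 and 3.31 in cTreg, a difference of 3.90 (SE 0.36, adjusted p = 1.1e-09). In conventional cells it scored 273 and 255 in Teff, against 2.55 and 6.48 in Tnaive, a difference of 5.68 (SE 0.36, adjusted p = 2.9e-13). The peak was at or below 6.48 in cTreg and Tnaive and reached its highest value of the 13 groups in Teff. Cxcr3 peak 1, at the promoter shown above, scored 70.9 and 66.7 in eTreg, against 15.1 and 15.4 in cTreg, and 214 and 183 in Teff, against 15.3 and 27.2 in Tnaive. Its differences were 2.10 (SE 0.29, adjusted p = 1.0e-06) and 3.21 (SE 0.29, adjusted p = 3.9e-10).

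At Ccr4 the called peaks lay beyond the 3′ end of the gene. Ccr4 peak 2 (chr9:114487499-114487899, 8.85 kb downstream of the start) scored 53.2 and 58.5 in eTreg, against 17.8 and 5.51 in cTreg, a difference of 2.36 (SE 0.52, adjusted p = 0.00065). It scored 30.5 and 23.5 in Teff, against 1.28 and 5.18 in Tnaive, a difference of 2.89 (SE 0.52, adjusted p = 5.7e-05). Ccr4 peak 1, beside it (9.58 kb downstream), scored 25.5 and 32.8 in eTreg, against 0.889 and 3.31 in cTreg, a difference of 3.39 (SE 0.55, adjusted p = 1.4e-05). Ccr4 peak 3, at the promoter with the composite motif, was called in no comparison. Ccr8 peak 3 scored 275 and 262 in eTreg, against 84.4 and 79.4 in cTreg, a difference of 1.70 (SE 0.24, adjusted p = 1.7e-06). In conventional cells it scored 67.9 and 77.3 in Teff, against 34.5 and 63.5 in Tnaive, a difference of 0.62 (adjusted p = 0.041). That call was lost without Teff library 1 (0.71), Teff library 2 (0.53) or Tnaive library 1 (0.19), with adjusted p of 0.074, 0.20 and 0.64.

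Ccr9 lost accessibility over most of its locus, with 7 of 9 peaks lower in eTreg than in cTreg. Of the 7, peak 3 lost its call without cTreg library 1 (-0.78, adjusted p = 0.075), and peak 7 without cTreg library 1 (-1.28, adjusted p = 0.081) or eTreg library 2 (-1.28, adjusted p = 0.078). Ccr9 peak 8 (2.57 kb downstream of the start) scored 7.76 and 1.17 in eTreg, against 35.5 and 60.6 in cTreg, a difference of -3.44 (SE 0.50, adjusted p = 2.1e-06). It scored 7.84 and 12.7 in Teff, against 65.1 and 89.4 in Tnaive, a difference of -2.81 (SE 0.50, adjusted p = 3.3e-05). Both sets of libraries were apart at this peak. Ccr9 peak 6, at the start, scored 4.43 and 8.19 in eTreg, against 31.1 and 40.8 in cTreg, a difference of -2.37 (SE 0.55, adjusted p = 0.001). In conventional cells its difference of -1.83 (adjusted p = 0.0088) lost its call without Teff library 1 (-1.48, adjusted p = 0.10) or Tnaive library 1 (-1.64, adjusted p = 0.069). Ccr2 peak 5 was also lower after the step, at 23.3 and 23.4 in eTreg, against 95.1 and 110 in cTreg (difference -2.09, SE 0.24, adjusted p = 6.3e-08).

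At Cxcr4 peaks of the same locus moved in opposite directions. Cxcr4 peak 7 scored 7.76 and 11.7 in eTreg, against 203 and 116 in cTreg, a difference of -3.87 (SE 0.38, adjusted p = 4.7e-09). It scored 10.5 and 15.7 in Teff, against 461 and 342 in Tnaive, a difference of -4.85 (SE 0.38, adjusted p = 4.0e-11). Cxcr4 peak 13 (chr1:128623053-128623453, 30.95 kb upstream) was instead higher in eTreg, with 55.4 and 56.2 in eTreg, against 7.11 and 7.71 in cTreg, a difference of 2.76 (SE 0.52, adjusted p = 9.6e-05). In Teff it scored 10.5 and 18.6, against 5.11 and 9.07 in Tnaive, and was not called. It was higher in eTreg than in Teff by 1.92 (adjusted p = 0.0089), a call lost without Teff library 1 (1.54, adjusted p = 0.13), eTreg library 1 (1.93, adjusted p = 0.058) or eTreg library 2 (1.91, adjusted p = 0.062).

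Cxcr4 peak 8 (13.7 kb upstream), next to peak 7, was lower to a smaller extent. It scored 201 and 188 in eTreg, against 386 and 442 in cTreg, a difference of -1.08 (SE 0.16, adjusted p = 3.4e-06). It scored 240.4 and 229.9 in Teff, against 459 and 421 in Tnaive, a difference of -0.90 (SE 0.16, adjusted p = 3.9e-05). Both calls held without each library.

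**Figure D3:**
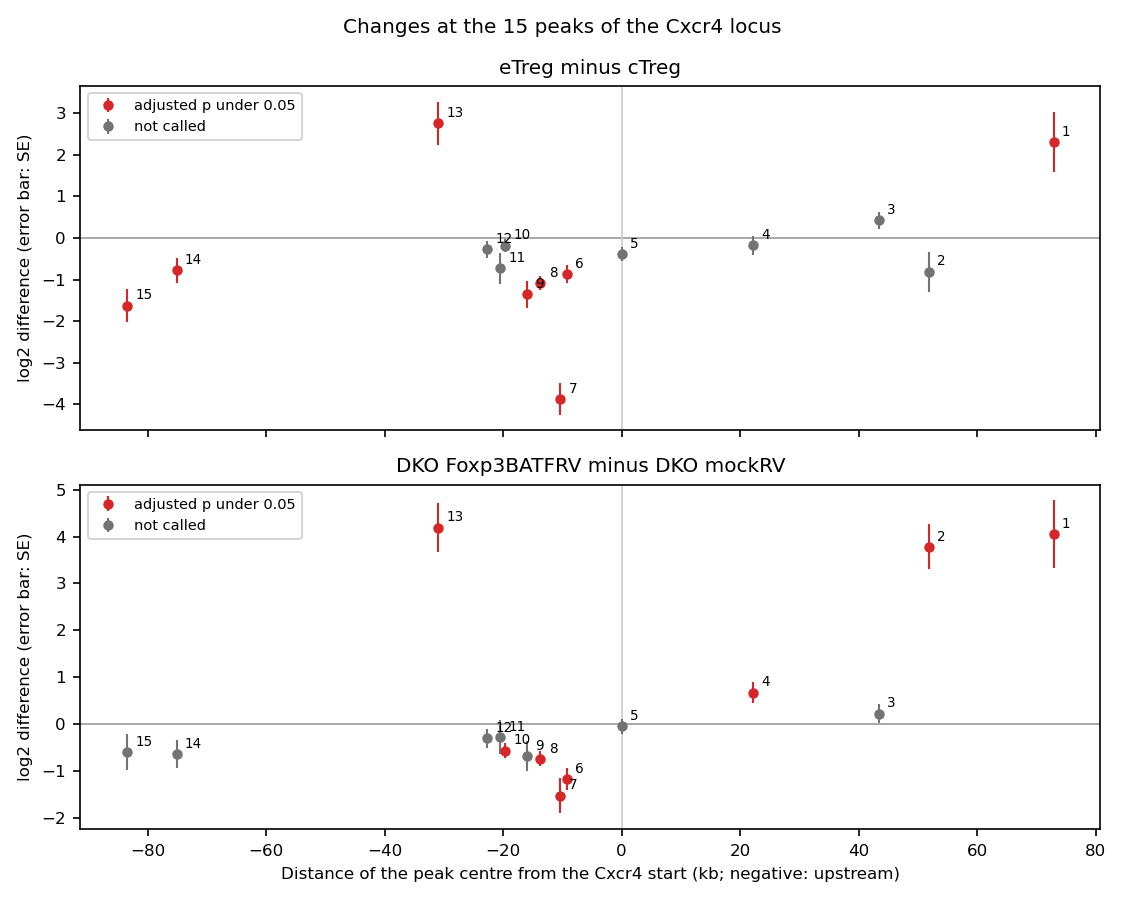
Log2 difference (points, with SE as error bars) at the 15 Cxcr4 peaks against the distance in kb of the peak centre from the Cxcr4 start, for eTreg minus cTreg (upper panel) and Foxp3 and BATF retrovirus minus mock (lower panel). Peak 7 is lower and peak 13 is higher in both panels, while peaks 5 and 12 were called in neither.

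At Ccr6 5 peaks, and at Ccr2 peaks 2 and 7, were called in conventional cells and not in Treg. Among these the difference between the steps was itself called only at Ccr6 peak 1. Ccr2 peaks 1 and 5 were called lower in both lineages. Of the 6 Ccr6 peaks, 5 were higher in Teff than in Tnaive, while between eTreg and cTreg their differences ran from -0.07 (peak 1, adjusted p = 0.89) to 1.28 (peak 4, adjusted p = 0.088). Ccr6 peak 3 scored 20 and 10.8 in Teff, against 2.55 and 1.30 in Tnaive, a difference of 2.46 (SE 0.39, adjusted p = 8.5e-06), and was below every eTreg and cTreg library. Ccr2 peak 7 scored 51.4 and 56.7 in Teff, against 15.3 and 3.89 in Tnaive, a difference of 2.62 (SE 0.52, adjusted p = 0.00015), while in Treg it scored 3.32 and 5.85 in eTreg, against 2.67 and 3.31 in cTreg. Ccr2 peak 5, lower in both lineages, scored 74.9 and 82.2 in Teff, against 175 and 209 in Tnaive, a difference of -1.27 (SE 0.24, adjusted p = 9.0e-05). These 3 calls held without each library.

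Cxcr5, the receptor of follicular T cells, opened beside its gene in both lineages. Cxcr5 peak 4 (1.88 kb from the gene body) scored 66.5 and 63.2 in eTreg, against 14.2 and 11.0 in cTreg, a difference of 2.28 (SE 0.37, adjusted p = 1.3e-05). It scored 41.8 and 50.9 in Teff, against 10.2 and 20.7 in Tnaive, a difference of 1.59 (SE 0.37, adjusted p = 0.0009). The libraries of each pair of groups were apart, and both calls held without each library. Cxcr5 peak 3, inside the gene, scored 177 and 142 in Teff, against 29.4 and 42.8 in Tnaive, a difference of 2.13 (SE 0.27, adjusted p = 2.7e-07) that also held. Cxcr5 peak 5, the tallest of the locus, was lower in Teff, at 279 ± 6.0, than in Tnaive, at 540 ± 5.4 (SD, n = 2 each; difference -0.95, SE 0.26, adjusted p = 0.0038).

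Both lineages shared most of the step. Of the peaks higher in the CCR7loCD62Llo cells, 10 were called in both, which is 76.9% of the 13 in Treg and 62.5% of the 16 in conventional cells, against 70.4% and 66.8% over all peaks. Of the lower peaks, 12 were called in both, or 80% and 75%, against 71.4% and 63.3% over all peaks. The shares at the receptor peaks were thus near those of all peaks. The difference between the steps was called at 3 of the 61 peaks (4.92%, against 3.91% of all peaks). Each had the smaller value in Treg, as 2.72% of all peaks did, while 0 had the larger one, against 1.18% of all peaks. Ccr6 peak 1 scored 59.8 and 64.4 in eTreg, against 60.4 and 70.5 in cTreg, and 23.5 and 17.6 in Teff, against 2.55 and 1.30 in Tnaive, so that it was higher after the step in conventional cells and nearly level in Treg. The difference between the steps was -2.97 (SE 0.44, adjusted p = 7.6e-05) and held without each of the 8 libraries.
The other two, at Ccr9 peak 5 and Cxcr3 peak 3, did not hold in that way. The difference was -2.16 (SE 0.58, adjusted p = 0.029) at Ccr9 peak 5, and leaving out 1 library gave -2.63 to -1.68, with the call lost without Teff library 1, Teff library 2, Tnaive library 2, cTreg library 1 or eTreg library 2. At Cxcr3 peak 3 it was -1.78 (SE 0.51, adjusted p = 0.043), with -2.32 to -1.24 when 1 library was left out, and the call remained only without Tnaive library 2 and was lost with edgeR (adjusted p = 0.41). The count of 3 became 1 without Teff library 1, Teff library 2, cTreg library 1 or eTreg library 2, and 5 without Tnaive library 2.

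**Figure D4:**
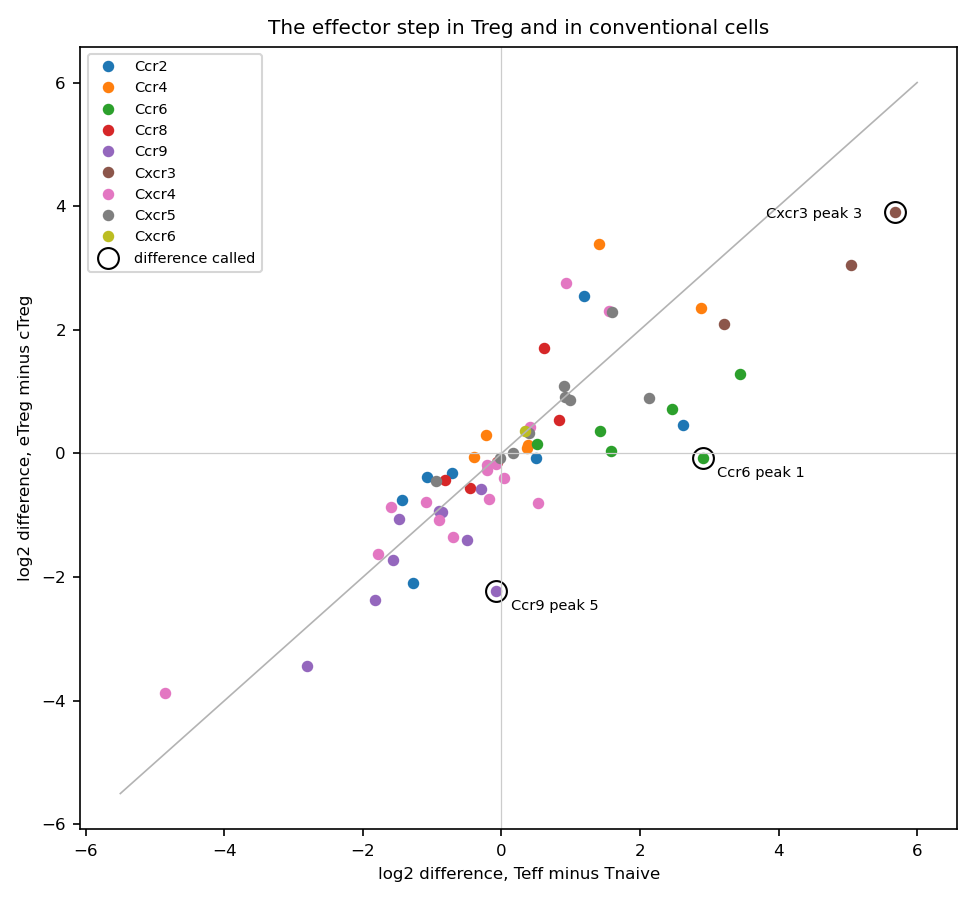
Log2 difference of eTreg minus cTreg (vertical axis) against Teff minus Tnaive (horizontal axis) for the 61 receptor peaks, coloured by gene, with the line of equal change. Circles mark the 3 peaks whose difference between the steps was called, Ccr6 peak 1, Ccr9 peak 5 and Cxcr3 peak 3, all below the line.

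Restoring Foxp3 and BATF together to double-knockout Treg changed many receptor peaks, and either factor alone changed few. With both retroviruses, 24 of 61 peaks were called against mock (39.3%, against 23.3% of all peaks), 16 higher and 8 lower, where 12.9% and 10.5% of all peaks were. Foxp3 alone gave 3 calls, 1 higher and 2 lower (4.92%, against 1.82% of all peaks, 1.01% higher and 0.814% lower). BATF alone gave 1, which was higher (1.64%, against 3.49% of all peaks, 3.2% higher and 0.291% lower). All 3 comparisons share the mock libraries.

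The largest rises were at distal Cxcr4 peaks, but the locus moved both ways. With both factors 4 of its 15 peaks were higher and 4 lower than with mock, and the median difference was -0.31. The largest fall was at Cxcr4 peak 7 (-1.53, SE 0.38, adjusted p = 0.0032). Peaks 1, 2, 6, 8 and 13 kept their calls without each library, and peaks 4, 7 and 10 did not. Cxcr4 peak 13 scored 52.4 and 50.7 with both factors, 6.19 and 3.84 with BATF, 1.08 and 1.53 with Foxp3, and 3.16 and 0.978 with mock. Cxcr4 peak 2 (chr1:128540207-128540607, 51.89 kb downstream) scored 103 and 149 with both, 32.2 and 22.1 with BATF, 3.23 and 7.67 with Foxp3, and 9.49 and 6.84 with mock. With both factors each peak was far above every other retrovirus library. The differences between both factors and mock were 4.19 (SE 0.52, adjusted p = 4.5e-07) at peak 13 and 3.78 (SE 0.48, adjusted p = 6.3e-07) at peak 2. Cxcr4 peak 1 (72.92 kb downstream) scored 36.9 and 43.8 with both, 12.4 and 8.64 with BATF, 2.15 and 1.53 with Foxp3, and 2.11 and 0.978 with mock, a difference of 4.05 (SE 0.72, adjusted p = 8.3e-05). These 3 calls held without each library.
At 3 peaks the combined change was larger than the sum of the single changes on the log2 scale, which was called at 4.92% of the receptor peaks and 1.09% of all peaks (0.586% larger than the sum and 0.506% smaller). The excess was 3.48 (SE 0.74, adjusted p = 0.019) at Cxcr4 peak 13, 2.75 (SE 0.68, adjusted p = 0.043) at Cxcr4 peak 2 and 3.94 (SE 0.92, adjusted p = 0.035) at Ccr2 peak 3 (chr9:124071488-124071888, 30.5 kb upstream). Peak 13 lost the call without BATF library 2 (3.19, adjusted p = 0.082) or mock library 1 (2.94, adjusted p = 0.071). Peak 2 kept it only without Foxp3 library 2, with 2.24 to 3.27 over the 8 libraries left out, and Ccr2 peak 3 only without Foxp3 library 1, with 2.61 to 5.28. The count of 3 became 0 without BATF library 2 or mock library 1, and 1 without BATF library 1, Foxp3 and BATF library 1, Foxp3 and BATF library 2 or mock library 2. It was also 0 when only the retrovirus libraries were fitted.

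Peaks of Ccr4 and Cxcr5 also opened with both factors, 2 of 6 at Ccr4 and 3 of 9 at Cxcr5, where 1 other was lower and the median difference was -0.20. Ccr4 peak 2 scored 148 and 195 with both, 114 and 70.1 with BATF, 37.6 and 7.67 with Foxp3, and 41.1 and 29.3 with mock, and both factors raised it by 2.25 (SE 0.52, adjusted p = 0.0018). Ccr4 peak 1 scored 87.4 and 85.2 with both, against 12.7 and 3.91 with mock, a difference of 3.41 (SE 0.55, adjusted p = 2.4e-05). Cxcr5 peak 6 (chr9:44537835-44538235, 11.39 kb from the gene body) scored 340 and 290 with both, 198 and 200 with BATF, 88.2 and 87.5 with Foxp3, and 70.6 and 66.5 with mock. It was the 1 receptor peak called with BATF alone, at 1.52 (SE 0.24, adjusted p = 0.00011), and rose by 2.18 (SE 0.24, adjusted p = 7.1e-08) with both factors. Cxcr5 peak 4 scored 146 and 131 with both, against 43.2 and 47.9 with mock, a difference of 1.58 (SE 0.37, adjusted p = 0.0018). Cxcr5 peak 2, inside the gene, was the lower one, at 72.8 and 102 with both factors, against 176 and 249 with mock (difference -1.27, SE 0.25, adjusted p = 0.00023). These 6 calls held without each library. The remaining higher Cxcr5 peak, peak 7, lost its call whichever library of these groups was left out. A second receptor peak was called with BATF alone when mock library 1 was left out, for a count of 2.

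At Ccr6 the peak at the start was higher with Foxp3 than with mock. Ccr6 peak 3 scored 64.1 and 62.2 with both factors, 28.5 and 34.6 with BATF, 74.2 and 70.6 with Foxp3, and 26.4 and 15.6 with mock. Foxp3 alone raised it by 1.78 (SE 0.39, adjusted p = 0.015), a call lost without Foxp3 library 2 (1.82, adjusted p = 0.070) or mock library 2 (1.42, adjusted p = 0.22). With both factors the rise was 1.59 (SE 0.39, adjusted p = 0.0030), lost without mock library 2 (1.23, adjusted p = 0.079). Ccr6 peak 2 (1.91 kb upstream) scored 72.8 and 65.6 with both, against 13.7 and 17.6 with mock, a difference of 2.08 (SE 0.31, adjusted p = 5.8e-06) that held without each library.

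The peaks at Ccr8 moved apart, as they did between WT Treg and WT Tconv. Ccr8 peak 1 scored 159 and 212 with both factors, 395 and 496 with BATF, 301 and 371 with Foxp3, and 492 and 673 with mock. It fell by 1.64 (SE 0.26, adjusted p = 1.6e-05) with both factors. Ccr8 peak 3, at the start, scored 300.0 and 453 with both, against 175 and 196 with mock, and rose by 0.99 (SE 0.24, adjusted p = 0.0026), a call lost without Foxp3 and BATF library 2 (0.69, adjusted p = 0.092). Cxcr6 peak 1 was lower wherever Foxp3 was supplied. It scored 59.2 and 72.5 with both, 203 and 238 with BATF, 66.7 and 127 with Foxp3, and 183 and 229 with mock. The difference was -1.63 (SE 0.26, adjusted p = 1.6e-05) with both factors, held without each library, and -1.14 (SE 0.26, adjusted p = 0.017) with Foxp3 alone, lost without Foxp3 library 1 (-0.68, adjusted p = 0.21) or mock library 2 (-0.98, adjusted p = 0.20).
The remaining call with Foxp3 alone was Ccr2 peak 3, at 5.38 and 0 with Foxp3, against 14.8 and 12.7 with mock. Its difference of -2.54 (adjusted p = 0.038) rests on few reads and was lost without Foxp3 library 2 (-1.20, adjusted p = 0.47), mock library 1 (-2.44, adjusted p = 0.12) or mock library 2 (-2.64, adjusted p = 0.17). The count of 3 with Foxp3 alone became 1 without Foxp3 library 2, 0 without mock library 2, 0 with quantile scaling and 1 when only the retrovirus libraries were fitted. With both factors Ccr2 peak 3 scored 71.8 and 66.8, higher than mock by 2.26 (adjusted p = 0.011), lost without Foxp3 and BATF library 1 (2.21, adjusted p = 0.058) or mock library 2 (2.16, adjusted p = 0.072).

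**Figure D5:**
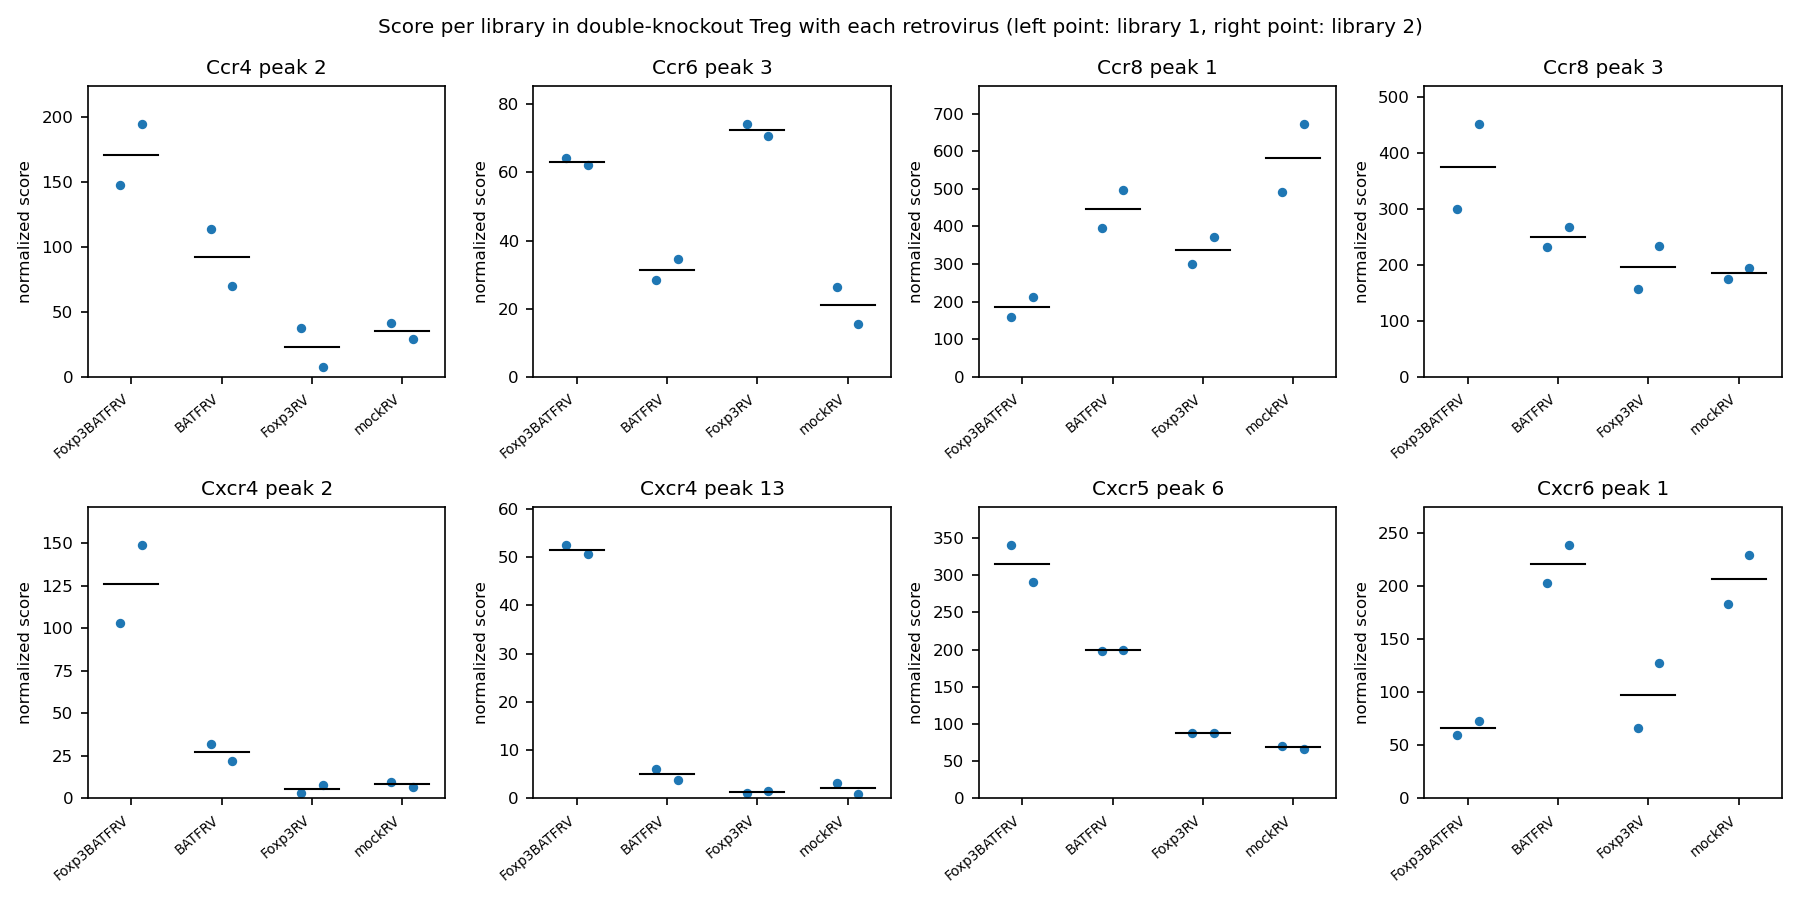
Normalized score per library (points) and group mean (bar) at 8 receptor peaks in double-knockout Treg with Foxp3 and BATF, BATF, Foxp3 or mock retrovirus. Cxcr4 peaks 2 and 13 are highest with both factors, Cxcr5 peak 6 is also above mock with BATF alone, and Cxcr6 peak 1 is lower in both groups with Foxp3.

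The response to both factors can be set beside the step of Treg to the effector state, which uses other libraries. Of the 13 peaks higher in eTreg than in cTreg, 8 were also higher with both factors than with mock, or 61.5% of the 13 and 50% of the 16, against 40.2% and 61.5% over all peaks. Of the lower peaks, 3 were called in both, or 20% of the 15 and 37.5% of the 8, against 33.7% and 56.1% over all peaks. Cxcr3 peak 3, the receptor peak with the largest rise in eTreg, scored 141 and 208 with both factors and 110 and 185 with mock, and was not called.

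Few peaks were called after loss of BATF or with the Foxp3R397W substitution, at the receptors as among all peaks. BATFKO and WT Treg differed at 1 peak, which was lower (1.64%, against 1.49% of all peaks, 0.062% higher and 1.43% lower). Cxcr5 peak 6, the peak raised by BATF retrovirus, scored 22.1 and 35.4 in BATFKO Treg, against 58.7 and 61.2 in WT Treg, a difference of -1.07 (SE 0.24, adjusted p = 0.013). The count was 0 without BATFKO library 1 (-0.74, adjusted p = 0.38), WT Treg library 1 (-1.10, adjusted p = 0.13) or WT Treg library 2 (-1.04, adjusted p = 0.10), and 0 when the libraries of its own experiment were fitted alone (adjusted p = 0.15). Ccr4 peak 2 scored 11.1 and 12.6 in BATFKO Treg, against 48.9 and 30.6 in WT Treg, and Ccr8 peak 3 scored 102 and 136 in BATFKO Treg, against 167 and 189 in WT Treg, both apart but not called. Ccr6 peak 1 scored 87.5 and 89.7 in BATFKO Treg, within the WT Treg range of 79.6 to 96.5.

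Foxp3R397W and control Treg likewise differed at 1 peak, which was lower (1.64%, against 2.63% of all peaks, 0.776% higher and 1.85% lower). Cxcr3 peak 3 scored 18.6 and 9.88 in Foxp3R397W Treg, against 41.6 and 42.1 in their controls, a difference of -1.55 (SE 0.36, adjusted p = 0.014). The count was 0 without Foxp3R397W library 2 (-1.13, adjusted p = 0.29), control library 1 (-1.56, adjusted p = 0.13) or control library 2 (-1.55, adjusted p = 0.11), while edgeR on the recovered reads gave 5 and a fit of these libraries alone gave 7. Ccr6 peak 3 scored 81.6 and 67.4 in Foxp3R397W Treg, against 133 and 104 in controls, and Ccr8 peak 3 scored 139 and 141, against 207 and 178 in controls, neither of them called. These values carry the conflict of names described above, and in the 22-library table the same libraries are called eTreg and cTreg.

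Other loci of the chemokine system are given beside the 9 receptors, without a test between the sets. Among 14 other chemokine receptors, 9 had peaks, 66 in all, of which 0 were higher and 4 lower in BATFKO than in WT Treg, while 6 were higher and 0 lower with BATF retrovirus than with mock. A peak of Ccr1, a receptor of inflammatory chemokines, averaged 14.2 ± 11 in BATFKO Treg and 138 ± 17 in WT Treg (SD, n = 2 each; difference -3.42, adjusted p = 1.6e-05). The Ccr1 peak named for the retrovirus comparison averaged 269 ± 22 with BATF and 29.7 ± 9.2 with mock (SD, n = 2 each; difference 3.17). Between eTreg and cTreg, 10 of these 66 peaks were higher and 24 lower, and between Teff and Tnaive 9 were higher and 33 lower. The background for the counts of these sets is 0.062% of all peaks higher and 1.43% lower in BATFKO than in WT Treg, 3.2% higher and 0.291% lower with BATF than with mock, 19.7% higher and 17.4% lower in eTreg than in cTreg, 20.7% higher and 19.6% lower in Teff than in Tnaive, and 12.9% higher and 10.5% lower with both factors than with mock.
Genes for ligands of the 9 receptors had 25 peaks at 10 of 15 genes, of which 14 were higher and 0 lower in eTreg than in cTreg, 9 higher and 1 lower in Teff than in Tnaive, and 9 higher and 1 lower with both factors than with mock. Genes of signalling below the receptors, with peaks at all 24 genes, had 304 peaks, of which 60 were higher and 59 lower in eTreg than in cTreg, 2 higher and 6 lower in BATFKO than in WT Treg, and 36 higher and 34 lower with both factors than with mock. Other trafficking genes, such as integrins and S1P receptors, had 101 peaks at 10 genes, of which 14 were higher and 32 lower in eTreg than in cTreg, and 18 higher and 18 lower with both factors. Gpr15, a receptor for homing to the colon, averaged 54.2 in BATFKO Treg and 518 in WT Treg at its named peak (difference -3.21).

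Peaks at marker genes of other cell types moved with several of these comparisons. The summed score of 26 peaks at the 6 CD8 and NK marker genes was 723 to 843 in eTreg and 2100 to 2134 in cTreg, 1132 to 1267 in Teff and 3133 to 3155 in Tnaive, and 1323 to 1394 in WT Treg and 2290 to 2377 in WT Tconv. It was also 905 to 940 with both factors and 1409 to 1421 with mock, 1579 to 1741 in Foxp3R397W Treg and 1228 to 1240 in their controls, and 1489 to 1601 in BATFKO Treg, above WT Treg. These markers were thus lower in eTreg, Teff and WT Treg and with both factors, and higher in Foxp3R397W and BATFKO Treg. The sum of 11 peaks at 4 of 6 myeloid markers was 941 to 977 in eTreg and 493 to 517 in cTreg, 868 to 884 in Teff and 461 to 485 in Tnaive, and 1084 to 1137 with both factors and 652 to 721 with mock. It was 577 to 631 in Foxp3R397W Treg and 767 to 788 in their controls, and 421 to 448 in BATFKO Treg and 518 to 558 in WT Treg. Of the 11 myeloid peaks, 3 were called higher and 1 lower in eTreg than in cTreg, with a median difference of -0.04. Between Teff and Tnaive 3 were higher and 2 lower (median -0.08), so the higher sums in eTreg and Teff rest on some of the peaks. With both factors 4 were higher and 0 lower than with mock (median 0.46). The 13 peaks at 3 of 6 B cell markers summed to 895 to 953 with both factors and 531 to 561 with mock, and Ms4a1, Cd79a, Csf1r and Adgre1 were among the markers with no peak. The part of these markers in the receptor results was not tested.

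The peaks elsewhere in the genome whose 13 group means followed the receptor peaks most closely are given as a description, since depth and protocol differ between the groups. Ccr8 peak 1 was followed most closely by a peak of Ahnak (r = 0.98), and Cxcr3 peak 3 by one of Myo1f (r = 0.97). Ccr4 peak 2 was followed by Cmah (r = 0.97), Ccr6 peak 3 by D130043K22Rik (r = 0.96), Ccr9 peak 6 by Bcas1 (r = 0.96), Cxcr6 peak 1 by Kat6b (r = 0.93), Cxcr5 peak 8 by Irf5 (r = 0.92) and Ccr2 peak 3 by Cd28 (r = 0.85). Havcr2, which encodes TIM-3, was among the 3 nearest to Ccr4 peak 2 (r = 0.95).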

How the data were processed

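The deposited values are a signal, a score per peak and library that the authors had normalized. Per the submitters' processing notes, edgeR (3.36.0, 3.38.4), DiffBind (3.0.15, 3.4.11), MACS2 (2.2.7.1) and Bowtie2 (2.4.1) were used with build mm10, in an order and with settings not given here. In each library of the deposited signal table, all values (100%) were whole multiples of 1 read within 0.02 reads, so counts were recovered. Peaks were assigned to RefSeq GRCm38.p6 gene bodies with bedtools 2.31.1. limma 3.58.1 in R 4.3.3 was fitted to log2(score + 1) over the 13 groups of 2 libraries in 1 fit with 13 residual degrees of freedom, with trend and robust options, and p-values were adjusted by the Benjamini-Hochberg method over 69316 peaks. The fit was tested on simulated data. SE is the moderated standard error. No label says that the libraries of a group came from separate animals, so p-values measure only the spread between libraries.

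Alternatives were edgeR 4.0.16 (quasi-likelihood) on the recovered reads, a pseudocount of 5, a minimum mean score of 20, quantile scaling, a distance of 25 kb, each experiment fitted alone, the replicate number as a block, each library left out, and the 22-library table under its own names. The peaks named are, for each receptor, the tallest, the one with the widest range of group means and the one nearest a start, and for each comparison the 3 called peaks with the largest change in each direction. For other genes they are the 3 with the smallest adjusted p per list and comparison, and the 3 most alike by Pearson's r. Other peaks that are named, among them Cxcr4 peak 8, Cxcr5 peaks 2, 3 and 4, Ccr4 peak 2 and Ccr8 peak 3 in BATFKO Treg and the marker peaks of Foxp3, Ccr7 and Batf, were chosen after their values were seen. The peak most like Cxcr4 peak 7 is not reported here. Members and lists were chosen with earlier results of these data known. The series has 30 samples in 15 groups, and Foxp3KO Treg and their controls were not analysed here as groups of their own.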

Additional observations from a re-analysis of the deposited data

Results flagged for a closer look

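The step from the CCR7hiCD62Lhi to the CCR7loCD62Llo state differed between Treg and conventional cells at 3 receptor peaks, by limma's test of the difference itself. The difference of Treg minus conventional steps was -2.97 (SE 0.44, adjusted p = 7.6e-05) at Ccr6 peak 1, -2.16 (SE 0.58, adjusted p = 0.029) at Ccr9 peak 5 and -1.78 (SE 0.51, adjusted p = 0.043) at Cxcr3 peak 3. Of these 3 calls, only that of Ccr6 peak 1 held without each library. Ccr6 peak 1 gained accessibility in conventional cells and was already open in cTreg. Ccr9 peak 5 was lower in eTreg than in cTreg and was not called between Teff and Tnaive, and Cxcr3 peak 3 rose in both lineages and by less in Treg.

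With retroviruses, the combined change departed from the sum of the single changes at 3 peaks, by the same kind of test. The excess was 3.94 (SE 0.92, adjusted p = 0.035) at Ccr2 peak 3, 2.75 (SE 0.68, adjusted p = 0.043) at Cxcr4 peak 2 and 3.48 (SE 0.74, adjusted p = 0.019) at Cxcr4 peak 13. All 3 were positive on the log2(score + 1) scale, and in none of the 3 was BATF or Foxp3 alone as high as both together. Of these 3 calls, 0 held without each library, and the count was 0 when only the retrovirus libraries were fitted.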

How the results depend on the processing

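Among 81 named peak and comparison pairs, edgeR on recovered reads kept 74 calls, quantile scaling 74, each experiment fitted alone 71 and a pseudocount of 5 kept 80, and no direction reversed under these. Counts of called receptor peaks moved by over 1.5 times as follows. For BATFKO Treg (1) the count was 2 with edgeR, 0 within its own experiment and 2 with quantile scaling. For BATF retrovirus (1) it was 3 with edgeR and 4 with a pseudocount of 5. For Foxp3 retrovirus (3) it was 1 within its own experiment and 0 with quantile scaling. For the excess over the single factors (3) it was 0 within its own experiment and 1 with quantile scaling, and 0 by construction with the filter on low scores and 0 within 25 kb, since both settings leave out all 3 peaks. For Foxp3R397W Treg (1) it was 5 with edgeR and 7 within its own experiment. For the difference between effector steps (3) it was 6 with a pseudocount of 5 and 5 with quantile scaling.

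With 1 library left out, counts ran from 0 to 1 for BATFKO, 1 to 2 for BATF retrovirus, 0 to 4 for Foxp3 retrovirus, 17 to 22 for both factors, 0 to 3 for the excess, 0 to 1 for Foxp3R397W, 27 to 31 for Teff against Tnaive, 10 to 13 for WT Treg against WT Tconv, 9 to 12 for cTreg against Tnaive, 11 to 14 for eTreg against Teff, 22 to 25 for eTreg against cTreg and 1 to 5 for the difference between steps.

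The replicate block moved the count to 2 for BATF retrovirus and 7 for the difference between effector steps and ended no call among the named pairs it was run on. Deviations of libraries with the same number correlated at 0.147 to 0.215 in the 6 pairs of retrovirus groups, 0.0435 to 0.0779 in the eTreg, cTreg, Teff and Tnaive groups and 0.0596 to 0.162 in the BATFKO and WT groups. With only 2 pairs per comparison and no label that ties the numbers, they were not taken to pair libraries. No paired analysis was run for Foxp3R397W, because its titles and those of its controls share no numbers, although their column names do.

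In the 22-library table under its own names, other libraries carry the names. Counts there were 26 for Foxp3R397W against control, 3 for Teff against Tnaive, 0 for cTreg against Tnaive, 0 for eTreg against Teff, 1 for eTreg against cTreg and 0 for the difference between steps, and were 20 for WT Treg against WT Tconv and 1 for BATFKO. These counts are over the receptor peaks of that table and stand without its shares of all peaks. Directions reversed at 29 pairs. For Teff against Tnaive these were Ccr2 peak 2 (0.18), Ccr4 peak 2 (-0.34), Ccr6 peak 1 (-0.42), Ccr6 peak 3 (-0.70), Ccr8 peak 1 (0.36), Ccr8 peak 3 (-0.70), Ccr9 peak 1 (0.15), Ccr9 peak 6 (0.61), Ccr9 peak 8 (1.10), Cxcr3 peak 1 (-0.41), Cxcr3 peak 3 (-1.39), Cxcr4 peak 7 (0.88) and Cxcr5 peak 5 (0.37). For eTreg against cTreg they were Ccr8 peak 3 (-0.48), Ccr9 peak 1 (0.21), Ccr9 peak 6 (0.59), Ccr9 peak 8 (0.90), Cxcr3 peak 1 (-0.53), Cxcr3 peak 3 (-1.63) and Cxcr4 peak 7 (0.71). For eTreg against Teff they were Ccr2 peak 6 (0.014), Ccr2 peak 7 (0.11), Ccr9 peak 5 (0.12) and Cxcr3 peak 3 (0.071). For cTreg against Tnaive they were Ccr4 peak 2 (-0.40), Ccr6 peak 5 (-0.032) and Cxcr4 peak 7 (0.20), and for the difference between steps Ccr6 peak 1 (0.16) and Ccr9 peak 5 (0.41). Every result on these 6 groups therefore rests on the names of the 26-library table. Peaks with scores of a few units, such as Ccr2 peak 3 and Cxcr4 peak 1, are limited by depth, and the signal carries no unit of accessibility beyond these libraries.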
